A study of Rattus norvegicus with 16 samples.

Results

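The genes described here build, cut and hold together the extracellular matrix of the brain, the perineuronal net included. The 38 genes were listed by their role: 4 lecticans, 2 link proteins, 3 hyaluronan synthases, 2 tenascins, 5 metalloproteinase inhibitors, 5 matrix metalloproteinases, 4 ADAMTS proteases, 10 basement membrane genes and 3 genes of the SPARC family. All 38 were found among the 33294 genes of the count table, and 37 were among the 17856 genes with enough counts to test. Mmp9, a gelatinase, was the exception, with 0 to 12 counts per library.

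Perineuronal nets are lattices around the soma and proximal dendrites of certain neurons, most of all fast-spiking interneurons that contain parvalbumin. In them hyaluronan chains, made at the cell surface, carry lecticans (chondroitin sulfate proteoglycans), link proteins fix the lecticans to the chain, and tenascin-R cross-links the lecticans at their other end. Metalloproteinases and ADAMTS enzymes cleave these parts, tissue inhibitors restrain them, and a separate matrix of type IV collagen, laminins, nidogens, perlecan and agrin forms the basement membrane of brain vessels.

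Poly(A) RNA was sequenced from adult rats, from tissue labelled as central amygdala, the GABAergic output nucleus of the amygdala. Exposure took place around birth, to the opioid fentanyl in one arm and to saline in the other, and both arms had later gone through sessions that the series calls IVSA, the last of them 1 day before the tissue was taken. The strain and the age in days are not stated. There were 6 fentanyl males, 2 fentanyl females, 6 saline males and 2 saline females, each 1 library. Libraries are named by group and replicate below. Saline male replicates 1 and 2 carry the library numbers 1 and 2, and saline male replicates 3 to 6 the numbers 9 to 12. Fentanyl males are numbered 1 to 6, fentanyl females 1 and 2 and saline females 10 and 11. The numbers 9 to 12 thus occur in saline libraries only. Exposure and library number are therefore partly confounded in males and over both sexes, and fully in females. What the numbers stand for, and which offspring were littermates, is not given, so the p-values measure only the spread between these libraries.

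Total counts per library ran from 12879701 to 22426428. Of markers of central amygdala neurons, Gad1 (446 to 709 CPM, counts scaled to a common library size) and Penk (423 to 2956 CPM) were present in every library, while Crh (0.521 to 17.2 CPM) and Cartpt (1.07 to 68.9 CPM) were near 0 in some. Markers of striatal spiny neurons were present as well, at 2157 to 10690 CPM summed over 10 genes. Saline male 3 stood apart by markers of cortical glutamatergic neurons, at a mean log2 CPM of 3.40 against -0.02 to 1.05 in the other libraries, and saline males 1 and 2 and fentanyl female 2 were the 3 lowest libraries for myelin markers. Fentanyl female 2 was the lowest of the 16 libraries for 10 of the 37 tested genes and fentanyl male 2 for 9. In bulk tissue, fewer cells of a type and less RNA per cell cannot be told apart.

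For 29 of the 38 genes a single RefSeq promoter was matched (assembly GRCr8, a newer build than the rn7 used for counting), and the 250 bases before the start were searched on both strands. The first pair of sequences is that of Acan and Hapln4, a lectican and a link protein that had the same 4 lowest libraries. The third is that of Has1, the hyaluronan synthase gene with the smallest p between the exposures. Capitals mark each match to GGGCGG (the GC box bound by Sp1), TGANTCA (AP-1) or TGACGTCA (the cAMP response element), on either strand. Matches to different motifs cannot share bases.
Acan, chr1:142390701-142390950, plus strand: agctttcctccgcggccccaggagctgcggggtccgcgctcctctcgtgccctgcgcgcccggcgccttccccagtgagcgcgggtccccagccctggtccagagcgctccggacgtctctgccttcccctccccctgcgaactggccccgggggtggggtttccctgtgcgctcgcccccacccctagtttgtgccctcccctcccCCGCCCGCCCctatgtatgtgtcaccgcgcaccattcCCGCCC
Hapln4, chr16:19375174-19375423, minus strand: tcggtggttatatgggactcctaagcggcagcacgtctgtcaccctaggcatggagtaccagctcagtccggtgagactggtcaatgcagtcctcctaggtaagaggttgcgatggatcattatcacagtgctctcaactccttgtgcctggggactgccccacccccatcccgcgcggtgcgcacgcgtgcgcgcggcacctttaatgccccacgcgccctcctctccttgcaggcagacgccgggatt
Has1, chr1:67378445-67378694, minus strand: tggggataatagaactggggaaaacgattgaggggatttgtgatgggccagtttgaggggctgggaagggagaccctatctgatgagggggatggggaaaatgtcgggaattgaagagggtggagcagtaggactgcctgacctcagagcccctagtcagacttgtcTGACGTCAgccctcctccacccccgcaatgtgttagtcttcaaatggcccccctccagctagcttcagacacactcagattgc

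A GC box was found before 19 of the 29 starts (65.5%), against 30.5% of 33469 promoters of the same length. The 33469 were not limited to genes with a single promoter or to tested genes, so the shares are not of like sets. The windows of Col4a1 and Col4a2 overlap, and the 1 GC box of Col4a1 is also 1 of the 2 of Col4a2. Acan has 3, of which the first pair overlap, and Hapln4 none, so the 2 genes do not share this motif in this window. AP-1 matches stood before 1 of 29 (3.45%, Spock1) against 6.34% of all. The cAMP response element stood before Has1 alone (3.45% against 1.59%), and this motif was added to the search after the Has1 sequence had been seen. A match describes letters and is not a measured binding site.

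Between the exposures, 8 fentanyl against 8 saline with sex as a term, none of the 37 genes passed the threshold of 0.05 in the quasi-likelihood test of edgeR, with p adjusted by Benjamini-Hochberg over all genes tested. The background was 14 of 17856 genes, or 0.0784%. DESeq2 called none of the 37 either, against 0.487% of all genes. At an unadjusted p under 0.05 there were 5 of the 37 (13.5%), against 7.27% of all genes. Has1, Timp1, Adamts5 and Vcan were lower and Lamc1 was higher on average after fentanyl. Of the 37, 28 had a log2 fold change below 0 (75.7%, against 52.3% of all genes), with a median of -0.14 against -0.01 for all genes. No gene of the 37 had separate ranges in the 2 exposures, against 0.101% of all genes.

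**Figure D1:**
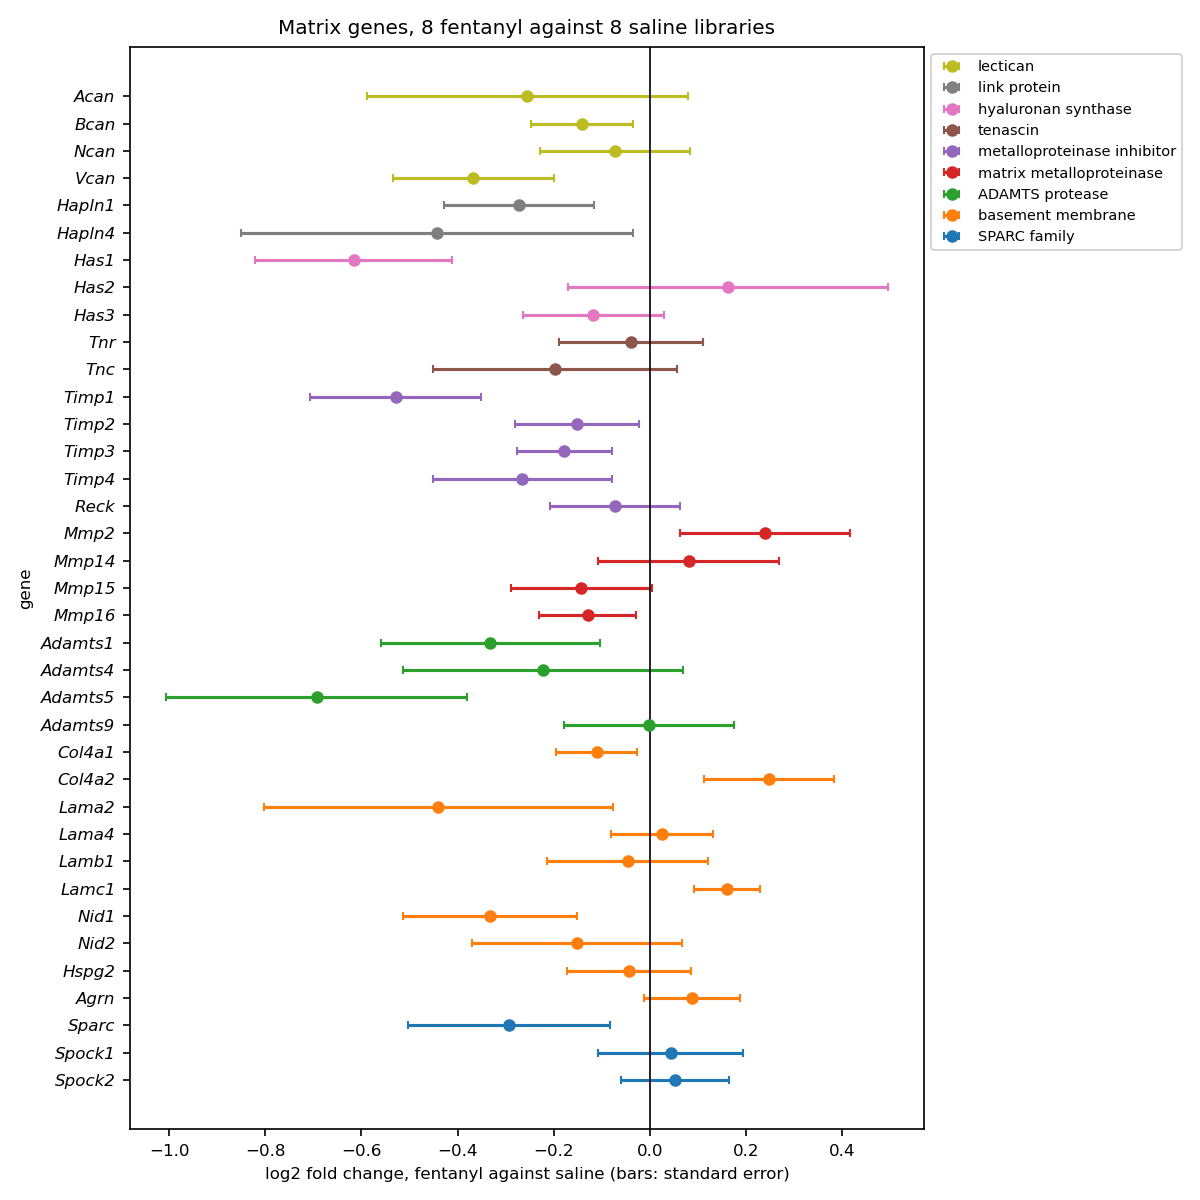
Log2 fold change of fentanyl against saline over both sexes (x axis) for the 37 tested genes (y axis), coloured by role, with bars of 1 standard error from edgeR's quasi-likelihood fit of 16 libraries. In the plot 28 points lie below 0, and the points farthest from 0 are Adamts5 at -0.69 and Has1 at -0.62.

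That lean to lower values depended on which marker mean was used as a covariate and on the saline libraries used. With the mean of the astrocyte markers as a covariate 17 of 37 genes were below 0 (median 0.02), and with that of the striatal markers 17 of 37 (median 0.05). Without the saline males numbered 9 to 12 it was 19 of 37, with a median of -0.01. Over both sexes 12 of 12 astrocyte markers (median -0.16), 11 of 12 myelin markers (-0.22) and 5 of 6 parvalbumin interneuron markers (-0.34) were below 0 as well, and 10 of 10 striatal markers were above 0 (0.55), with none of these past the test. Summed over the list, astrocyte markers ran from 2504 to 4165 CPM in saline and from 2491 to 3509 CPM in fentanyl, and striatal markers from 2157 to 8267 CPM and from 5039 to 10690 CPM. No marker of these 4 lists was at 0 in any library. With myelin markers as the covariate 27 of 37 stayed below 0 (median -0.09), and with endothelial and mural markers 28 of 37 (median -0.13). The astrocyte, striatal and myelin markers themselves leaned by exposure, so with these covariates tissue makeup and exposure cannot be told apart. The cause of the lean was not tested.

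Among the lecticans, the core proteoglycans of the net, all 4 had a log2 fold change below 0 and none passed. Vcan, versican, which is also made by glial precursors, ran from 27.8 to 62.5 CPM in saline (median 44.1) and from 19.4 to 38.2 CPM in fentanyl (median 34.9). The saline libraries spread widely, with saline males 1 and 2 the lowest of them, while 7 of the 8 fentanyl libraries lay between 32.8 and 38.2 CPM and fentanyl female 2 fell below every other library. Its log2 fold change was -0.37 ± 0.17 (SE, adjusted p = 0.677). Without saline males 1 and 2 it was -0.54 ± 0.14 and passed (adjusted p = 0.0351), and it passed with limma voom and library quality weights (-0.37 ± 0.10, adjusted p = 0.0434). In these fits 6.9% and 5.77% of all genes were called. The split of the saline males was chosen with earlier results of these data known. Fits without saline males 1 and 2, here and below, are therefore not an independent test. Acan, aggrecan, the lectican most specific to nets, was at 7.64 ± 3.77 CPM in the saline and 6.61 ± 2.98 CPM in the fentanyl libraries (mean ± SD, 8 of each, as for all such pairs below), with a log2 fold change of -0.25 ± 0.33. Bcan, brevican, made largely by glia, had 316 ± 51.5 and 287 ± 34.2 CPM (-0.14 ± 0.11). Ncan, neurocan, had 75.1 ± 13.4 and 71.4 ± 16.1 CPM (-0.07 ± 0.16).

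The link proteins and hyaluronan synthases, which anchor and make the backbone of the net, had no gene past the test. Has1 had the smallest p of all 37 genes: saline ran from 1.58 to 3.15 CPM (median 2.72) and fentanyl from 1.01 to 2.595 CPM (median 1.61). The ranges overlapped, with saline males 1 and 2, at 1.58 and 1.91 CPM, the 2 lowest saline libraries and fentanyl male 4, at 2.595 CPM, above 4 of the 8. Its log2 fold change was -0.62 ± 0.21 (adjusted p = 0.493), on 14 to 75 counts per library, and -0.76 ± 0.20 without saline males 1 and 2, where it passed (adjusted p = 0.0317). Has2 was near the lower end of counting, at 2 to 13 counts per library (0.431 ± 0.203 and 0.491 ± 0.179 CPM, log2 fold change 0.16 ± 0.33). Has3 had 9.49 ± 2.72 CPM in saline and 8.64 ± 1.32 CPM in fentanyl (-0.12 ± 0.15). Of the link proteins, Hapln1 had 32.6 ± 8.61 and 27.0 ± 5.24 CPM (-0.27 ± 0.16), and Hapln4, which sits at perisynaptic nets with brevican, 91.1 ± 55.2 and 71.0 ± 30.0 CPM (-0.44 ± 0.41).

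The tenascins differed by less than their error: Tnr, tenascin-R, had 149 ± 28.1 CPM in saline and 145 ± 31.5 CPM in fentanyl (log2 fold change -0.04 ± 0.15). Tnc, tenascin-C, a protein of developing and injured tissue, had 7.48 ± 1.74 and 6.51 ± 3.09 CPM (-0.20 ± 0.25).

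Of the metalloproteinase inhibitors, all 5 had a fold change below 0 and none passed. Timp1, an inducible inhibitor, had 1.498 to 2.601 CPM in saline (median 1.90) and 0.805 to 1.83 CPM in fentanyl (median 1.44). Both fentanyl females, at 1.06 and 0.805 CPM, and fentanyl male 5, at 1.10 CPM, were the lowest 3 of the 16 libraries. The log2 fold change was -0.53 ± 0.18 (adjusted p = 0.500), on 14 to 62 counts per library. Timp2 had 292 ± 72.0 and 261 ± 37.9 CPM (-0.15 ± 0.13), and Timp3, an inhibitor bound to the matrix, 67.6 ± 10.7 and 59.9 ± 6.34 CPM (-0.18 ± 0.10). Timp4 had 30.6 ± 9.58 and 25.7 ± 5.24 CPM (-0.26 ± 0.19), and -0.47 ± 0.12 without saline males 1 and 2, where it passed (adjusted p = 0.0336). Reck, a membrane-anchored inhibitor, had 28.2 ± 6.08 and 26.8 ± 4.77 CPM (-0.07 ± 0.13). In the gene order of GRCr8, Timp1, Timp3 and Timp4 lie within the spans of the synapsin genes Syn1, Syn3 and Syn2, which neurons express. Whether counting used the strand is not given in the sources used here, and the synapsin genes had fold changes of 0.09 ± 0.14, 0.12 ± 0.14 and -0.02 ± 0.26, none past the test. Timp2 overlaps Cep295nl (-0.48 ± 0.15, not past the test).

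The metalloproteinases themselves were on both sides of 0. Mmp2, gelatinase A, had 2.57 ± 0.525 CPM in saline and 3.08 ± 0.945 CPM in fentanyl (log2 fold change 0.24 ± 0.18), and Mmp14, the membrane protease that activates it, 2.76 ± 0.691 and 2.92 ± 0.741 CPM (0.08 ± 0.19). Mmp15 had 35.2 ± 7.80 and 32.0 ± 6.97 CPM (-0.14 ± 0.15), and Mmp16 44.9 ± 5.42 and 41.2 ± 7.33 CPM (-0.13 ± 0.10). Mmp9 had 0.167 ± 0.185 and 0.155 ± 0.113 CPM and was not tested. The ADAMTS enzymes include the aggrecanases, which cut lecticans. Adamts5 ran from 0.753 to 3.19 CPM in saline (median 1.31) and from 0.558 to 1.65 CPM in fentanyl (median 1.03). Its highest library was saline male 3, the one high in cortical markers, and 5 of the 8 fentanyl libraries lay within the saline range. The log2 fold change was -0.69 ± 0.31 (adjusted p = 0.676), and -0.47 without saline male 3. Adamts4, also an aggrecanase, had 48.5 ± 21.0 and 42.3 ± 12.4 CPM (-0.22 ± 0.29), Adamts1, a versican-cleaving enzyme, 6.07 ± 2.25 and 4.85 ± 1.16 CPM (-0.33 ± 0.23), and Adamts9 3.35 ± 0.759 and 3.33 ± 0.816 CPM (-0.001 ± 0.18).

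Basement membrane genes had 4 of 10 fold changes above 0. Lamc1, the laminin gamma chain common to most laminins, had 40.9 to 58.1 CPM in saline (median 47.1) and 48.4 to 62.0 CPM in fentanyl (median 53.3). All 8 fentanyl libraries lay above the saline median, and saline female 2 at 58.1 CPM was above 7 of them. The log2 fold change was 0.16 ± 0.07 (adjusted p = 0.652). Lamb1 had 26.2 ± 8.04 and 25.1 ± 4.17 CPM (-0.05 ± 0.17), Lama4, the endothelial laminin alpha chain, 8.02 ± 0.833 and 8.20 ± 1.22 CPM (0.03 ± 0.11), and Lama2, another alpha chain, 5.96 ± 3.36 and 4.39 ± 1.56 CPM (-0.44 ± 0.36). Of the nidogens, which link laminin to collagen, Nid1 had 9.79 ± 2.42 and 7.97 ± 2.28 CPM (-0.33 ± 0.18) and Nid2 4.07 ± 1.29 and 3.67 ± 0.978 CPM (-0.15 ± 0.22). Hspg2, perlecan, had 13.3 ± 2.19 and 13 ± 2.53 CPM (-0.04 ± 0.13), and Agrn, agrin, 218 ± 33.1 and 232 ± 25.4 CPM (0.09 ± 0.10).

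In the SPARC family, Sparc, a collagen-binding glycoprotein, had 634 ± 201 CPM in saline and 528 ± 138 CPM in fentanyl (log2 fold change -0.29 ± 0.21). Without saline males 1 and 2 it was -0.53 ± 0.13 and passed (adjusted p = 0.0292). The testicans Spock1 and Spock2, proteoglycans of neurons, had 220 ± 54.8 and 227 ± 29.4 CPM (0.04 ± 0.15) and 706 ± 83.8 and 730 ± 119 CPM (0.05 ± 0.11). Spock1 passed with 3 surrogate variables in the fit (0.24 ± 0.05, adjusted p = 0.0231). In that fit 1.98% of all genes were called, and 1 of these 37. With limma voom and library quality weights the share was 5.77% of all genes, and 2 of the 37, Vcan and Col4a1. Without saline males 1 and 2 it was 6.9% of all genes, and 4 of the 37, Sparc, Has1, Timp4 and Vcan, all lower. Saline males 1 and 2 were the lowest saline libraries for each of these 4 genes, so leaving them out by itself lowers the fold change.

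**Figure D2:**
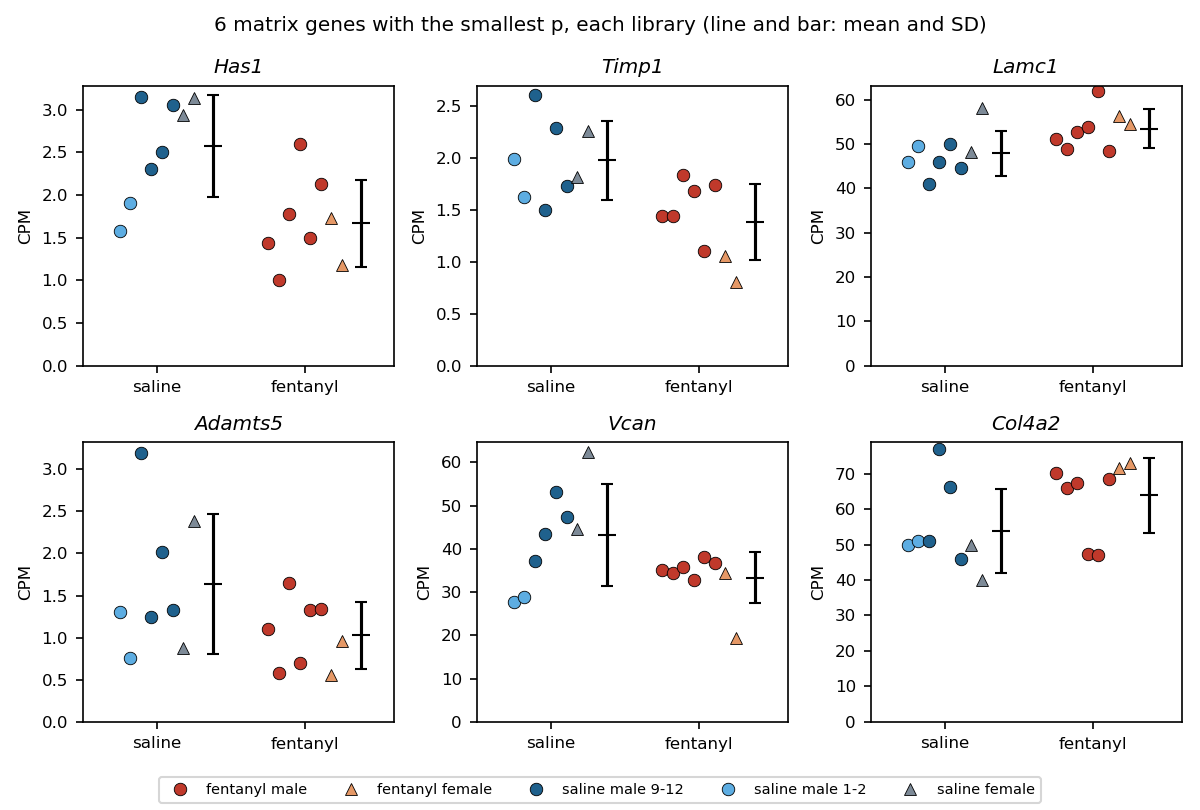
CPM of the 6 matrix genes with the smallest p between the exposures (y axis) in each of 8 saline and 8 fentanyl libraries (x axis); circles are males, triangles females, and the line and bar beside each group are the mean and SD. The light blue saline males 1 and 2 are the lowest saline libraries for Has1 and Vcan, and the ranges of the exposures overlap for all 6 genes.

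Col4a1 and Col4a2 encode the 2 chains of the common type IV collagen molecule and start head to head, 76 bases apart, in GRCr8. The interval between the starts is shown because the 2 genes leaned opposite ways. Its GC content is 78.9% and it holds 1 GC box, in capitals.
Interval between the Col4a1 and Col4a2 starts, chr16:84885521-84885596, plus strand: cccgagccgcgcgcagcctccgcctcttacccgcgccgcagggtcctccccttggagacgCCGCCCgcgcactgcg

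Col4a1 had 28.2 ± 3.75 CPM in saline and 26.1 ± 2.04 CPM in fentanyl, a log2 fold change of -0.11 ± 0.08, and -0.23 ± 0.06 with limma voom and library quality weights, where it passed (adjusted p = 0.0429). Col4a2 ran from 40.0 to 77.0 CPM in saline (median 50.5) and from 47.2 to 72.9 CPM in fentanyl (median 67.9), a log2 fold change of 0.25 ± 0.14 (adjusted p = 0.735). In 6 fentanyl libraries it lay at 65.9 CPM or above, and in 6 saline libraries at 51.1 CPM or below, with fentanyl males 4 and 5 and saline males 4 and 5 as the exceptions. Within a library, the ratio of Col4a2 to Col4a1 counts averaged 1.93 ± 0.404 (SD) over the saline and 2.46 ± 0.442 over the fentanyl libraries. It ran from 1.21 to 2.496 and from 1.75 to 3.04, so the exposures overlapped. In males the ratio averaged 2.07 ± 0.316 over the saline and 2.32 ± 0.416 over the fentanyl libraries. The 2 saline females had 1.84 and 1.21, and the 2 fentanyl females 3.04 and 2.70. The wider gap was thus in females, where exposure and library number cannot be told apart. Saline males numbered 1 and 2 had a mean ratio of 2.08 and those numbered 9 to 12 one of 2.06. The ratio was chosen after the values were seen and is given with no test.

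**Figure D3:**
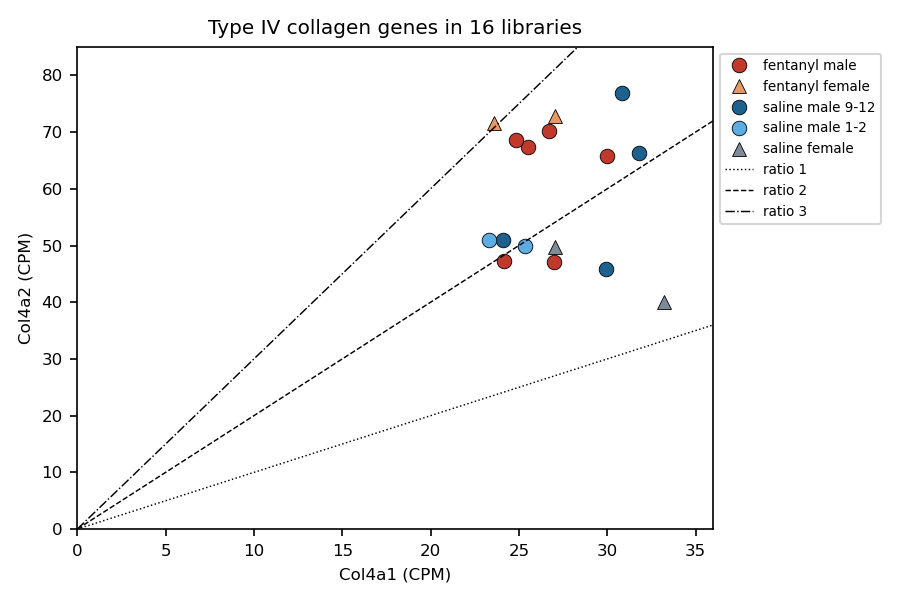
Col4a2 against Col4a1 in CPM, 1 point for each of 16 libraries, with lines of equal ratio (1, 2 and 3). The 2 fentanyl females, at ratios of 3.04 and 2.70, lie above the line of ratio 2, and the 2 saline females below that of ratio 2.

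In males alone, 6 against 6, none of the 37 genes passed (background 7 genes, 0.0392%, by edgeR), and 1 had an unadjusted p under 0.05 (2.70%, against 4.13% of all genes). Lamc1 had 40.9 to 49.98 CPM in saline males (median 45.9) and 48.4 to 62.0 CPM in fentanyl males (median 51.9), a log2 fold change of 0.20 ± 0.08. The fentanyl males were mostly above, with the lowest 2 inside the saline range. Next by p were Has1 (2.42 ± 0.618 and 1.74 ± 0.560 CPM in saline and fentanyl males, -0.47 ± 0.23), Timp1 (1.95 ± 0.424 and 1.54 ± 0.267 CPM, -0.34 ± 0.19) and Mmp2 (2.66 ± 0.570 and 3.40 ± 0.808 CPM, 0.36 ± 0.20). Lama4 followed (7.75 ± 0.767 and 8.76 ± 0.763 CPM, 0.18 ± 0.10), and then Hapln1 (33.3 ± 10.02 and 26.7 ± 5.86 CPM, -0.32 ± 0.18). All of these had adjusted p = 1.00 (n = 6 males each, by edgeR), and no gene of the 37 had separate ranges, against 0.375% of all genes.

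The result in males turned on which saline males were used. Against saline males 1 and 2 alone, 6 genes were higher in fentanyl males: Spock1 (log2 fold change 0.79 ± 0.14), Sparc (0.77 ± 0.18), Timp4 (0.64 ± 0.15), Lama2 (1.26 ± 0.31), Hapln4 (1.70 ± 0.43) and Adamts4 (1.13 ± 0.30), where 5.47% of all genes were called. Against saline males 3 to 6 none passed (background 0.4%). The median of the 37 was 0.14 in the first case and -0.14 in the second.

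The 2 saline sets were compared directly, saline males numbered 9 to 12 against those numbered 1 and 2, in a fit of 5 groups. This split was chosen because earlier results of these data had shown a different tissue makeup in the 2 sets. Its p-values therefore describe a contrast picked from the same counts and are not an independent test. Of the 37 genes 14 passed (37.8%), against 17.9% of all genes. Higher in the males numbered 9 to 12 were 13 (35.1%, against 9.66% of all), and 1, Has3, was lower (2.70%, against 8.27% of all). DESeq2 called 14 (background 21.4%) and limma voom with library quality weights 19 (background 32.1%). The 14 cover the net (Acan, Vcan, Hapln4, Has3), inhibitors and proteases (Timp3, Timp4, Mmp15, Adamts1, Adamts4), the basement membrane (Lama2, Nid1, Hspg2) and the SPARC family (Sparc, Spock1). The ranges of the sets were separate for 21 of 37 (56.8%), against 44.8% of all genes in a split of 4 against 2.

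Hapln4 had 40.8 and 10.5 CPM in saline males 1 and 2 and 52.4, 138, 161 and 150 CPM in saline males 3 to 6. Saline male 2 was far below the rest, and saline male 3 lay nearer to saline male 1 than to the other 3 of its set. The log2 fold change was 2.30 ± 0.51 (adjusted p = 0.00857). Acan had 4.05 and 2.38 CPM against 4.36, 10.7, 12.3 and 10.4 CPM, with saline male 3 again close to saline male 1 (1.56 ± 0.44, adjusted p = 0.0256). Vcan had 27.8 and 28.8 CPM against 37.3, 43.5, 53.2 and 47.4 CPM (0.68 ± 0.20). Has3 ran the other way, at 12.9 and 14.1 CPM against 8.18, 9.99, 9.20 and 7.37 CPM (-0.64 ± 0.18).

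Sparc had 381 and 306 CPM in saline males 1 and 2 and 755, 629, 744 and 914 CPM in saline males 3 to 6 (log2 fold change 1.15 ± 0.20, adjusted p = 0.00262). Spock1 had 141 and 132 CPM against 227, 238, 274 and 267 CPM (0.88 ± 0.15, adjusted p = 0.00221). For these 2 genes saline male 3 lay with its own set. Timp4 had 20.3 and 15.7 CPM against 25.2, 35.0, 44.0 and 39.4 CPM (1.00 ± 0.20), and Timp3 57.3 and 51.3 CPM against 61.8, 70.5, 80.4 and 74.9 CPM (0.40 ± 0.12). Mmp15 had 25.9 and 24.7 CPM against 39.0, 38.8, 41.4 and 45.6 CPM (0.70 ± 0.20). Among the 4 higher males the inhibitors were lowest in saline male 3, while Mmp15 was even across them. The host genes of these inhibitors, Syn2 (-0.67 ± 0.38) and Syn3 (-0.26 ± 0.24), did not pass.

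The 2 ADAMTS genes and Lama2 shared a shape, with saline male 3 next to saline males 1 and 2. Adamts4 had 16.7 and 26.4 CPM against 30.8, 57.9, 70.2 and 71.7 CPM (log2 fold change 1.41 ± 0.36), Adamts1 3.29 and 3.42 CPM against 4.11, 6.37, 9.36 and 7.14 CPM (1.00 ± 0.28). Lama2 had 2.40 and 1.85 CPM against 3.10, 6.49, 8.98 and 7.08 CPM (1.59 ± 0.40). Nid1, with 7.07 and 6.66 CPM against 9.73, 9.86, 12.9 and 11.5 CPM (0.68 ± 0.22), and Hspg2, with 9.81 and 10.1 CPM against 13.4, 15.3, 15.6 and 13.8 CPM (0.54 ± 0.16), were more even within the sets. For all 14 genes the mean of the 6 fentanyl males lay between the means of the 2 saline sets. These genes were selected for a gap between the 2 saline sets, which makes such a position likely. No share over other genes was taken, so this is not a result about the matrix genes. For Has3 the fentanyl mean lay at 8.83 CPM against 8.68 CPM in the nearer set, and for Hapln4 at 83.4 CPM between 25.7 and 125 CPM.

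**Figure D4:**
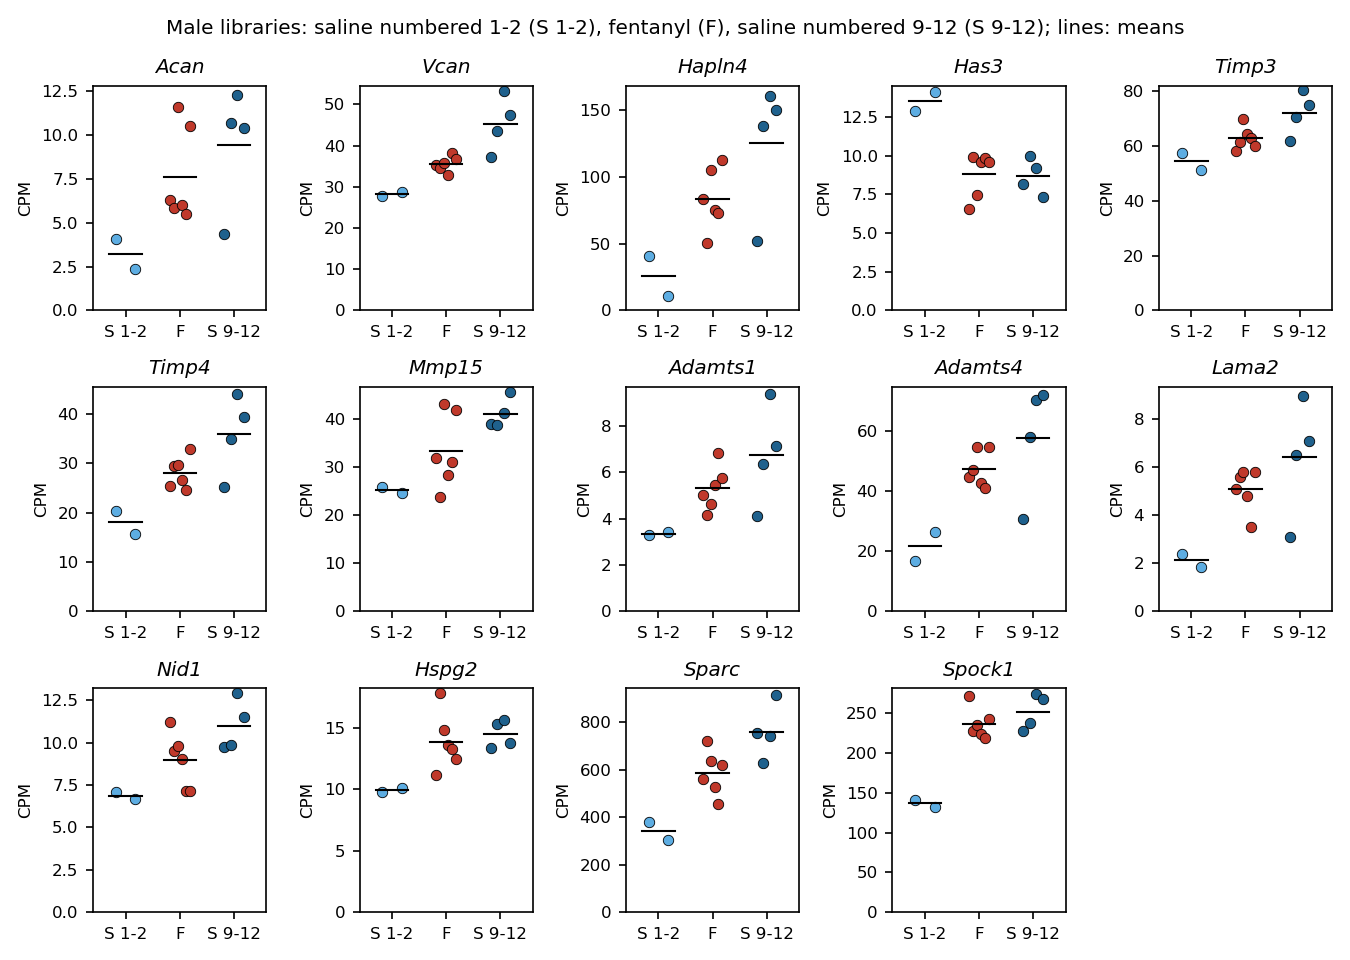
CPM (y axis) of the 14 matrix genes that passed between saline males numbered 1 and 2 and those numbered 9 to 12, with the fentanyl males between them (x axis); points are libraries and lines are means. In each panel the mean of the 6 fentanyl males lies between those of the 2 and the 4 saline males. The genes were selected for a gap between these saline sets, which makes that position likely.

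Markers of cell types moved with these genes. Between the same saline sets 10 of 12 myelin markers, 6 of 9 oligodendrocyte precursor markers, 5 of 12 astrocyte markers, 3 of 12 microglial markers and 3 of 6 parvalbumin interneuron markers were higher in the males numbered 9 to 12, and 10 of 10 striatal markers were lower. Summed myelin markers were 7462 to 10060 CPM in saline males 1 and 2 and 11650 to 33830 CPM in saline males 3 to 6, summed parvalbumin markers 223 to 310 CPM and 337 to 805 CPM, and summed striatal markers 5694 to 8267 CPM and 2157 to 3770 CPM, with no marker at 0. Of 10 central amygdala markers 2 were lower in the males numbered 9 to 12. Summed, they were 3427 to 3842 CPM in saline males 1 and 2 and 1321 to 2292 CPM in saline males 3 to 6. Of 4 tested markers of cortical glutamatergic neurons 2 were higher. Of the endothelial, mural and meningeal fibroblast markers none passed. With a marker mean as a covariate 0 of the 37 genes passed for myelin (1.14% of all genes), astrocytes (0.118%), parvalbumin interneurons (0.0336%) and striatal neurons (0.0112%), and 15 passed for endothelial and mural cells (19.9%). The first 4 of these means themselves differ between the saline sets. The count rested on single libraries too. It was 0 without saline male 2 (1.09% of all genes), 4 without saline male 1 (6.92%), 6 without saline male 6 (10.7%) and 7 without saline male 5 (12.4%).

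Hapln4 and Acan varied more than 5-fold over the 16 libraries, and their lowest libraries were also the lowest for the parvalbumin markers. Hapln4 ran from 10.5 CPM in saline male 2 to 161 CPM in saline male 5, a ratio of 15.2, and Acan from 2.38 to 12.3 CPM in the same 2 libraries, a ratio of 5.18. The 4 lowest libraries for Hapln4, for Acan and for the mean of 6 parvalbumin markers were the same: saline males 1 and 2 and fentanyl females 1 and 2. The 3 highest for Hapln4, saline males 4 to 6, were the 3 highest for the parvalbumin mean. For Acan the 3 highest were saline male 5, fentanyl male 3 and saline male 4, of which fentanyl male 3 ranked 12 of 16 from the lowest by the parvalbumin mean, and saline male 6 ranked 11 for Acan. Of the 4 lowest libraries for myelin markers, 3 were among the 4 lowest for Hapln4. Saline males 1 and 2 and fentanyl females 1 and 2 were also the 4 lowest by the astrocyte marker mean (6.54 to 6.77 log2 CPM). By the microglial mean they were the 4 lowest too (4.03 to 4.31), so the likeness is not particular to parvalbumin markers. Pvalb itself, the calcium-binding protein that names these interneurons, ran from 8.63 CPM in saline male 2 to 198 CPM in saline male 6. With the parvalbumin mean as a covariate the difference between the exposures for Hapln4 was 0.06 on the log2 scale, against -0.44 without it. With the striatal mean it was 0.60, and with the astrocyte mean it was above 0 as well. These genes share the libraries and their makeup, so the likeness is a description.

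**Figure D5:**
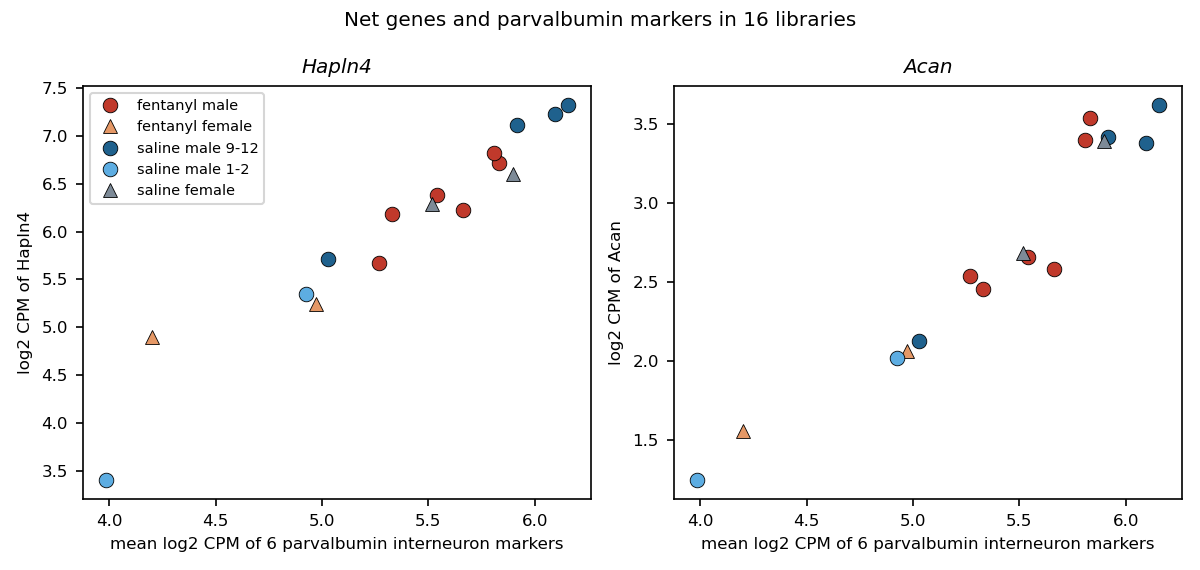
Log2 CPM of Hapln4 and of Acan (y axes) against the mean log2 CPM of 6 parvalbumin interneuron markers (x axis), 1 point for each of 16 libraries. Saline males 1 and 2 and the 2 fentanyl females are the 4 points at the lower left of both panels.

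Each lectican gene lies beside a link protein gene, with 0 protein-coding genes between them in the gene order of GRCr8: Acan and Hapln3, Bcan and Hapln2, Ncan and Hapln4, Vcan and Hapln1. Between the saline sets 1 gene of each pair passed and the other did not. Acan was higher by 1.56 ± 0.44 and Hapln3 had 0.28 ± 0.37. Hapln4 was higher by 2.30 ± 0.51 and Ncan had -0.29 ± 0.27. Hapln2 was higher by 2.03 ± 0.54 and Bcan had 0.29 ± 0.17, and Vcan was higher by 0.68 ± 0.20 while Hapln1 had -0.38 ± 0.26 (log2 fold change ± SE). Hapln2, the link protein of nodes of Ranvier, made by oligodendrocytes, had 86.2 and 93.6 CPM in saline males 1 and 2 and 150, 352, 432 and 537 CPM in saline males 3 to 6. The difference within a pair was not tested.

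The females were 2 against 2, and their error came from the joint fit with the males. None of the 37 genes passed in edgeR, and none of all 17856 did (0%). DESeq2 called 0 of the 37, against 0.112% of all genes. At an unadjusted p under 0.05 there were 12 of 37 (32.4%), against 14.3% of all genes. Of these, 10 were lower and 2, Col4a2 and Agrn, higher in fentanyl females. Vcan had 44.7 and 62.5 CPM in saline females and 34.3 and 19.4 CPM in fentanyl females (log2 fold change -0.998 ± 0.29). Timp1 had 1.81 and 2.26 against 1.06 and 0.805 CPM (-1.12 ± 0.33), and Nid1 8.00 and 12.6 against 5.13 and 4.83 CPM (-1.05 ± 0.32). For these 3 genes fentanyl female 2 was the lower of its pair. Lama2 had 6.31 and 11.5 against 2.79 and 1.66 CPM (-1.998 ± 0.61), Timp3 64.0 and 80.5 against 51.4 and 51.2 CPM (-0.49 ± 0.18), and Col4a2 49.7 and 40.0 against 71.6 and 72.9 CPM (0.69 ± 0.25). Each of these 6 genes had adjusted p = 0.333 (edgeR). The other 6 under that p were Adamts1, Has1, Lama4, Sparc, Agrn and Timp4.

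The female groups did not overlap for 21 of 37 genes (56.8%), 17 lower and 4 higher in fentanyl, against 48.8% of all genes in a split of 2 against 2. All 12 myelin markers (median log2 fold change -1.01), 12 of 12 astrocyte markers (-0.52) and 6 of 6 parvalbumin markers (-1.04) were below 0 in females, and 10 of 10 striatal markers were above 0 (0.86), none past the test. Of 10 central amygdala markers 8 were above 0 (median 0.82), also none past the test. Summed myelin markers were 25860 to 26210 CPM in saline and 8258 to 19440 CPM in fentanyl females, and summed parvalbumin markers 538 to 615 CPM and 316 to 390 CPM. The median of the 37 genes was -0.29 in females (-0.01 for all genes), -0.01 with the astrocyte mean as a covariate, -0.14 with the myelin mean and -0.18 with the parvalbumin mean. The fentanyl females are numbered 1 and 2 and the saline females 10 and 11, so the exposure and the library number cannot be told apart in females. In a fit of the 4 females alone Hapln4 (-1.37 ± 0.21, adjusted p = 0.0189) and Lama2 (-1.99 ± 0.38, adjusted p = 0.0490) passed by edgeR, where 0.387% of all genes did. Without saline males 3 to 6 in the joint fit 5 were lower in fentanyl females (Lama2, Adamts1, Vcan, Timp4 and Sparc), against 2.84% of all genes.

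The difference between the sexes in the effect of fentanyl was tested as an interaction, and none of the 37 genes passed, nor any of all genes (0%, by edgeR). Under an unadjusted p of 0.05 were 6 of 37 (16.2%), against 8.23% of all genes. They were Lama4 (female minus male log2 fold change -0.61 ± 0.20), Lama2 (-2.04 ± 0.69), Nid1 (-0.94 ± 0.36), Vcan (-0.84 ± 0.34), Agrn (0.46 ± 0.21) and Adamts1 (-1.02 ± 0.48), each with adjusted p = 0.570. Lama4 had 9.12 and 8.54 CPM in saline females and 6.30 and 6.76 CPM in fentanyl females, where the fentanyl males (8.06 to 10.2 CPM) were not below the saline males (6.80 to 8.98 CPM). Agrn had 219 and 172 CPM against 254 and 274 CPM in females, and Adamts1 6.75 and 8.16 CPM against 3.57 and 3.38 CPM. Without saline males 3 to 6, 15 of the 37 genes passed in this comparison, where 16.4% of all genes did.

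Between females and males, with exposure as a term, none of the 37 genes passed (background 10 genes, 0.056%), and 0 had an unadjusted p under 0.05 (2.52% of all genes). DESeq2 called none of them (0.0672% of all genes). The smallest p was that of Mmp2, with a log2 fold change of -0.44 ± 0.21 in females against males. Its 4 female libraries had 2.06, 2.57, 2.62 and 1.61 CPM, all within or just below the male range of 1.72 to 4.71 CPM. Mmp16 (-0.24 ± 0.12), Has3 (-0.33 ± 0.17), Timp2 (-0.27 ± 0.15), Lamc1 (0.14 ± 0.08) and Nid1 (-0.33 ± 0.21) came next, each with adjusted p = 1.00 by edgeR.

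Of 77 other matrix genes listed as partners, 71 were tested. Between the exposures none passed, and 42 had a fold change below 0 (59.2%). The smallest p were those of Lamb3, a laminin beta chain (log2 fold change 0.59 ± 0.20), Crtac1, a cartilage acidic protein (0.31 ± 0.13), and Csgalnact1, an enzyme that starts chondroitin sulfate chains (-0.37 ± 0.16). In males, females, the interaction and the sexes none passed either.

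Between the saline sets 10 of the 71 were higher and 8 lower in the males numbered 9 to 12, against 9.66% and 8.27% of all genes. Of 17 enzymes of chondroitin sulfate synthesis 3 were higher and 2 lower. Chst3, a 6-O-sulfotransferase, was higher (12.2 against 5.05 CPM, log2 fold change 1.26 ± 0.31), as was Dse, which turns the chain towards dermatan sulfate (0.59 ± 0.19). Chst15, which adds the second sulfate of a disulfated unit, was lower (78.3 against 162 CPM, -1.05 ± 0.22), and so was Csgalnact1 (-0.65 ± 0.21). Chst13 was at 0.579 against 0.0633 CPM, too low for its fold change to be read.

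Among proteases 3 were lower, namely Adamts3, a procollagen peptidase that also cleaves reelin (36.6 against 82.5 CPM, log2 fold change -1.17 ± 0.21), Adamts6 (-0.92 ± 0.26) and Mmp17 (-0.69 ± 0.17). Reln, reelin, a protein secreted by interneurons, was also lower (22.8 against 75.0 CPM, -1.72 ± 0.35). The basement membrane genes and receptors had 5 higher and none lower, among them Lama3 (2.00 ± 0.40), Col15a1 (1.09 ± 0.28), Itgb1 (0.57 ± 0.16) and Itga6 (0.49 ± 0.15). Sparcl1, hevin, an astrocytic relative of Sparc, was higher (0.80 ± 0.24), Hapln2 was higher as given above, and Crtac1 (-0.55 ± 0.16) and Thbs4 (0.386 against 0.973 CPM, -1.32 ± 0.38) were lower. The 5 hyaluronan turnover genes had none past the test.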

How the data were processed

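The deposited table gives the authors' read counts per gene symbol, not normalized, for 16 poly(A) libraries. Trimmomatic, STAR, HTSeq, DESeq2 and build rn7 are named in the submitters' processing notes. Whether counting used the strand is not given in the sources used here.

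The 38 genes, the partner genes, the marker lists and the split of the saline males by library number were chosen with earlier results of these data known. R 4.3.3 and edgeR 4.0.16 were used: filterByExpr over the 4 groups (minimum 0.603 CPM and 10 counts), TMM factors, and robust quasi-likelihood fits of all 17856 genes kept, with exposure and sex, with the 4 groups, or with saline males split by library number (5 groups). Standard errors are the absolute fold change over the root of F. CPM use TMM factors.

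Every member was given a level, and every member but Mmp9 a fold change. Library values or ranges went mainly to members past the threshold or among the 6 smallest p of a comparison. Some of these have only group means or the fold change. Depth ran from 12879701 to 22426428 counts, and genes with few counts, such as Has1, Timp1 and Adamts5, are the least precise. No pair of libraries differed by less than sampling noise (chi-square per gene at least 3.88). The scripts were tested on simulated data for the comparison over both sexes. There 56.7% of 1.5-fold, 77.6% of 2-fold and 100% of 4-fold changes were recovered, and 12 of 168 calls were false. Changes of 1.5-fold or less can therefore be missed. Alternatives were RLE factors, no filter, DESeq2 1.42.0, limma 3.58.1 voom with library quality weights, sva 3.50.0, no sex term, a replicate block, 1 sex alone, libraries left out, and marker means as covariates. The parvalbumin covariate, saline male 3 and fentanyl male 2 left out together, and a crossed block were added after seeing the data.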

Additional observations from a re-analysis of the deposited data

Results flagged for a closer look

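In the groups of 6 males, 74 sets of values were examined for a lowest or highest library that stands apart, and 3 did (4.05%). A rate of 1 in 20 would hold for independent sets. These sets share their libraries, so the rate does not show whether the flags are due to chance. All 3 were fentanyl male 2 at the low end of the fentanyl males: Ncan at 34.5 CPM with the nearest library at 64.7 CPM, Tnr at 79.8 CPM with the nearest at 143 CPM, and Mmp16 at 31.1 CPM with the nearest at 41.9 CPM. The same library had the highest Hapln2 of all 16, at 645 CPM, and the lowest TMM factor, at 0.902.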

How the results depend on the processing

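For the 37 members over both sexes, 1160 of 1184 values under the 32 alternatives kept their direction and side of the threshold, and 17 reversed. Counted as kept were 75 sign changes of members whose fold change in the joint fit was smaller than its standard error. Reversed means a change of sign of a larger one, and the value under the alternative can itself be near 0. The members called, 0 in the joint fit, were 2 with limma voom and library quality weights (2 changes made together), 1 with surrogate variables and 4 without saline males numbered 1 and 2. Without those numbered 9 to 12 they were 6 in males, 5 in females and 15 for the difference between sexes, and in females alone 2. Between the saline sets the 14 calls became 0 with the astrocyte, myelin, parvalbumin or striatal covariate, with surrogate variables and with the replicate block, 2 (Spock1 and Sparc) with the block and the female numbers crossed, and 0 to 16 with 1 library left out. The causes were not tested.

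Reversed log2 fold changes over both sexes, with the astrocyte covariate, were Adamts1 0.0078, Hapln4 0.29, Lama2 0.18, Sparc 0.024 and Timp4 0.029. With the striatal covariate they were Hapln4 0.60, Lama2 0.16, Sparc 0.29, Timp2 0.10 and Timp4 0.14. Without saline males numbered 9 to 12 they were Hapln4 0.34, Sparc 0.045, Timp2 0.052 and Timp4 0.033. Hapln4 was 0.056 with the parvalbumin covariate and 0.26 with surrogate variables, and Mmp16 was 0.028 with limma voom and quality weights. In males Has1 was 0.0023 without those numbered 9 to 12. Between the sexes Timp2 was 0.019 with surrogate variables. Between the saline sets Acan was -0.10 with the parvalbumin covariate, and Has3 0.022 and Sparc -0.0059 with surrogate variables.

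Replicate numbers in the titles showed no clear pairing of the male libraries. Same-numbered libraries had correlations of -0.212 to 0.263 over 8 pairs, with 2 over 0.1, and 1 library correlated best with its own number. Values were centred within each group, so the 2 female pairs necessarily share 1 value (-0.212). They cannot show whether the female libraries were paired. With the replicate block the members called stayed at 0 over both sexes, and their median was -0.12. The crossed numbering, added after seeing the data, gave 0 over both sexes, in males and in females.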
